A study of Homo sapiens with 6 samples.

Results

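NEAT1, MALAT1, H19, LUCAT1 and PVT1 are long noncoding RNAs, transcripts that are not translated and that act as RNA. They were chosen by gene symbol from a table of read counts, where 5 of the 21776 genes bore these names, and all 5 passed the filter on low counts that left 14255 genes for testing. The counts came from RNA sequencing of SCC25, an established human cell line derived from oral squamous cell carcinoma, with a genotype given as WT. There were 6 libraries. The 3 hypoxia libraries came from cells kept for 12 h in 1% O2 with CO2 and balancing N2, and the 3 normoxia libraries from cells kept for 12 h in air with the same share of CO2. Both groups were grown in DMEM/F12 with fetal bovine serum, and the labels give no other treatment. The labels name SCC25 while the study's text names SCC9 for its own analysis of the sequencing. Only 1 line was sequenced, and nothing in the labels says whether the 3 libraries of a group came from separate cultures, so the p-values measure the spread between these libraries, which may be technical.

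MALAT1 is retained in the nucleus, where it concentrates in nuclear speckles, the compartments that store splicing factors. NEAT1 is transcribed from the neighbouring gene and is the scaffold of paraspeckles, nuclear bodies that retain certain RNAs and proteins. NEAT1 has a short isoform with a poly(A) tail and a long isoform. The long isoform and MALAT1 are cut at their 3′ ends by RNase P, carry no poly(A) tail there and are stabilised by an RNA triple helix. H19 is an imprinted RNA next to the growth factor gene IGF2 and is the host of a microRNA, miR-675. LUCAT1 is induced by stress and is known as a target of the transcription factor NRF2. PVT1 lies beside the oncogene MYC, and its promoter is known to compete with that of MYC for enhancers. NEAT1, MALAT1 and H19 are each known to respond to low oxygen in other cells.

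The libraries were made with an mRNA sequencing kit from total RNA. If its priming began at poly(A) tails, the long NEAT1 isoform and MALAT1 were captured incompletely. Counts per gene do not separate the NEAT1 isoforms. Hypoxia replicates 1 to 3 held 30186813, 36076088 and 32272716 counts in all, against 37278703, 29637189 and 29981208 for normoxia replicates 1 to 3. All values are bulk values, in which fewer cells of a type and less RNA per cell cannot be told apart.

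Normoxia replicate 3 stood apart from the other normoxia libraries in genes of the oxygen response. Among 15 well-known hypoxia response genes, 13 had their highest normoxia level in this library. NDRG1, a stress gene strongly induced by low oxygen, had 6078, 4017 and 12097 counts in normoxia replicates 1 to 3, against 275026, 390979 and 345182 counts in the hypoxia libraries. All 15 genes rose under hypoxia, as did 39.2% of all genes tested, with a median log2-fold change of 2.71. Without this library, no count of genes higher or lower in the 12 lists described here moved by more than 1, and H19 is given with and without it.

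The label of a squamous carcinoma line was compared with 12 squamous epithelial markers. ITGB4, an integrin of the basal cell layer, was the most abundant of them, and TP63, the master regulator of squamous cells, had between 1499 and 2442 counts in every library. KRT14, a basal keratin, was at or below 1 count in all 6 libraries, whereas its partner KRT5 had between 3494 and 4424 counts. Of the 11 squamous markers tested, 8 rose (72.7%, beside 39.2% of all genes tested), 2 fell (18.2%, beside 38.5%) and TP63 did not pass the test (log2-fold change 0.12, adjusted p = 0.358 by edgeR). Without normoxia replicate 3 it passed (0.35, adjusted p = 7.55e-06). The summed level of the tested markers was 2851 ± 99.6 CPM under hypoxia against 1266 ± 123 CPM under normoxia (SD, n = 3), where CPM divides each count by the size of its library after TMM scaling.

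Markers of other cell types were low, apart from COL1A1 and CD68. Among 8 fibroblast markers, 2 were tested. COL1A1, a collagen chain, was the most abundant and rose by 2.26 on the log2 scale, while COL3A1 stayed at or below 2 counts in every library. The summed fibroblast level was 19.4 ± 2.44 CPM under hypoxia and 4.28 ± 1.25 CPM under normoxia. Among 7 leukocyte and endothelial markers in the table, 2 were tested. CDH5, an endothelial cadherin, passed at a log2-fold change of 1.14 (adjusted p = 0.0250 by edgeR), but not without hypoxia replicate 1 (0.0790) or 3 (0.0781) or normoxia replicate 1 (0.136) or 2 (0.0919), and the filter of 10 counts left it out. PTPRC, CD3E and LYZ were at or below 2 counts in every library. Their summed level was 32.4 ± 3.34 CPM under hypoxia and 33.5 ± 1.29 CPM under normoxia, most of it from CD68, a lysosomal protein. The part of these markers in the results on noncoding RNAs was not tested.

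Of the 5 RNAs, NEAT1, MALAT1, H19 and LUCAT1 rose under hypoxia and PVT1 fell slightly. Most genes changed in this comparison: 77.8% of all genes tested passed the threshold by edgeR's quasi-likelihood test with Benjamini-Hochberg adjustment, 39.2% higher and 38.5% lower. Calls of 4 higher and 1 lower among 5 genes are therefore read against these shares. The conditions did not overlap in any of the 5 RNAs, nor did they in 80.5% of all genes. The median log2-fold change over all genes tested was 0.02. With 3 libraries against 3, the two-sided exact permutation test on log2 CPM gave p = 0.1 for each of the 5, the smallest value this design allows.

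**Figure D1:**
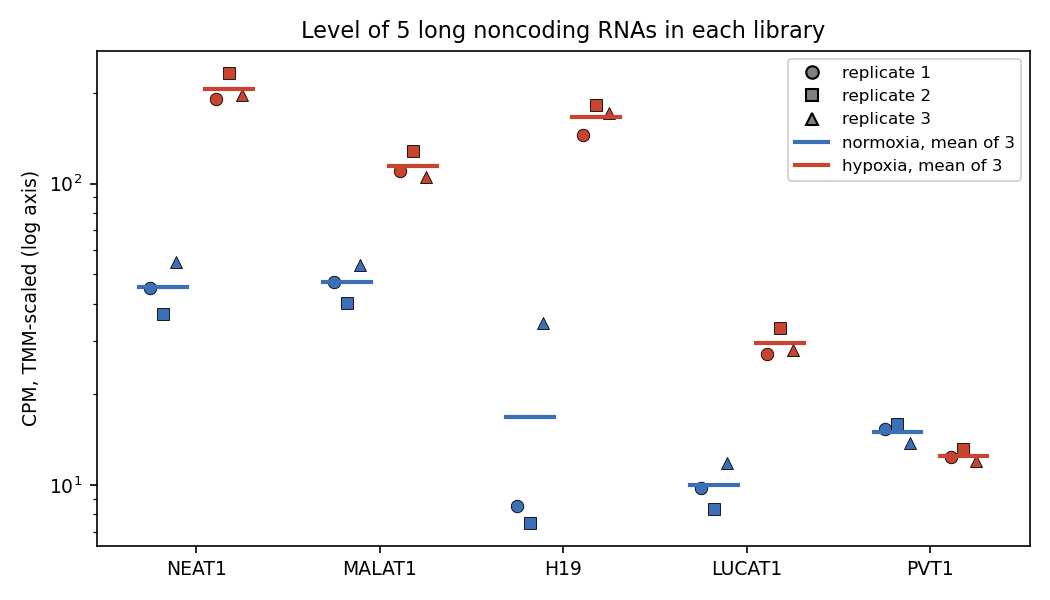
Level of each RNA in each library as TMM-scaled CPM on a log axis, with blue for normoxia and red for hypoxia, a symbol for each replicate number and a line at the mean of 3 libraries. NEAT1, MALAT1, H19 and LUCAT1 lie higher in all 3 hypoxia libraries, PVT1 lies slightly lower, and normoxia replicate 3 lies far above the other normoxia libraries in H19.

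NEAT1 (Entrez gene 283131), the paraspeckle scaffold, showed the second largest change. It had 5816, 8639 and 6387 counts in hypoxia replicates 1 to 3, against 1673, 1054 and 1622 counts in the normoxia libraries in the same order. Every hypoxia library lay well above every normoxia library. Its mean was 206.5 ± 22.5 CPM under hypoxia against 45.5 ± 9.01 CPM under normoxia (SD, n = 3). The log2-fold change was 2.18 (SE 0.106, edgeR adjusted p = 5.37e-12), or 4.54-fold, and 7.34% of all genes tested had a higher log2-fold change.

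MALAT1 (Entrez gene 378938), the speckle RNA, rose less than NEAT1. In the same order, the hypoxia libraries held 3368, 4761 and 3408 counts and the normoxia libraries 1753, 1146 and 1594. The highest normoxia library was far below the lowest hypoxia library once depth was taken into account, at 53.9 CPM against 105 CPM. The level was 114 ± 12.0 CPM under hypoxia and 47.0 ± 6.92 CPM under normoxia (SD, n = 3). The log2-fold change was 1.28 (SE 0.0899, edgeR adjusted p = 5.95e-10), or 2.43-fold, and 15.7% of all genes tested had a higher one.

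Because both RNAs were counted in the same libraries, their ratio does not depend on scaling between libraries. The ratio of NEAT1 to MALAT1 counts was 1.73, 1.81 and 1.87 in hypoxia replicates 1 to 3, against 0.954, 0.920 and 1.02 in the normoxia libraries. NEAT1 thus took about as many reads as MALAT1 under normoxia and more in every hypoxia library. The ratio was 1.87-fold higher under hypoxia, a difference of 0.91 on the log2 scale, with p = 0.1 in the two-sided exact permutation test (adjusted p = 0.1 over 2 ratios), the smallest possible. By the deposited per-length values MALAT1 was the higher of the pair in both conditions, NEAT1 being the longer gene. The FPKM (fragments scaled by gene length and library total) was 9.23 ± 1.13 for NEAT1 and 13.3 ± 1.58 for MALAT1 under hypoxia, and 1.97 ± 0.408 and 5.27 ± 0.829 under normoxia. The lengths behind these FPKM were 22743 bases for NEAT1 and 8779 bases for MALAT1, the whole span of each gene in RefSeq. NEAT1 was thus scaled by its long isoform. Since the counts do not separate its isoforms, the order of the pair per base rests on that length.

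MALAT1 has a pair of start sites in the RefSeq promoter table, and the upstream window is shown because it holds letters that the factors of the oxygen and stress responses can bind. The sequences run 5′ to 3′ from 250 bases before to 50 bases after the start site, on build GRCh38.p14. Letters were searched on both strands for ACGTG and GCGTG, the core that hypoxia-inducible factors recognise, for CACGTG, the E-box of MYC and MAX, and for TGACNNNGC, the antioxidant response element of NRF2. CACGTG contains ACGTG, so those searches overlap. Of 35116 human promoters of the same length, 21.4% held ACGTG, 36.5% GCGTG, 7.26% CACGTG and 13.3% TGACNNNGC. A match describes the sequence and is not evidence of binding. Capitals mark the matches. The upstream MALAT1 promoter lies at chr11:65497488-65497787 on the plus strand:
MALAT1 promoter: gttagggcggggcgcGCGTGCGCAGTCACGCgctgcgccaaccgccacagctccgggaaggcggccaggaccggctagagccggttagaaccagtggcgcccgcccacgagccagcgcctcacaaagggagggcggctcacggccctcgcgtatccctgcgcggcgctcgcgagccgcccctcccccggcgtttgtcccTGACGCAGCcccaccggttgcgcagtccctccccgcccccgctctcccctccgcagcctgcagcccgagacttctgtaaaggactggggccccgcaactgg
It held GCGTG at 2 places, on either strand, and TGACNNNGC at 2 places, of which the first overlaps both GCGTG matches. The downstream MALAT1 promoter, at chr11:65498795-65499094 on the plus strand, held 1 GCGTG.

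H19 (Entrez gene 283120), the imprinted RNA, had the highest log2-fold change of the 5 and the widest spread under normoxia. It had 4409, 6757 and 5570 counts in hypoxia replicates 1 to 3, against 318, 214 and 1024 counts in normoxia replicates 1 to 3. The hypoxia libraries lay close together, but normoxia replicate 3 had several times the H19 of the other normoxia libraries, at 34.6 CPM against 8.55 and 7.48 CPM. The level was 166 ± 19.3 CPM under hypoxia and 16.9 ± 15.4 CPM under normoxia (SD, n = 3). The coefficient of variation was 91.0% under normoxia and 11.6% under hypoxia, whereas the median over 11574 genes was 6.14% and 5.57%. The log2-fold change was 3.32 (SE 0.338, edgeR adjusted p = 8.45e-08), or 9.96-fold, and 2.78% of all genes tested had a higher one. Without normoxia replicate 3, the library that was also highest in most hypoxia response genes, the log2-fold change was 4.35. The part of this library's state in the H19 level was not tested.

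The window at the start of H19, chr11:2001217-2001516 on the minus strand of GRCh38.p14, is shown beside that of MALAT1 because H19 had the highest log2-fold change and its window held none of the 4 sets of letters:
H19 promoter: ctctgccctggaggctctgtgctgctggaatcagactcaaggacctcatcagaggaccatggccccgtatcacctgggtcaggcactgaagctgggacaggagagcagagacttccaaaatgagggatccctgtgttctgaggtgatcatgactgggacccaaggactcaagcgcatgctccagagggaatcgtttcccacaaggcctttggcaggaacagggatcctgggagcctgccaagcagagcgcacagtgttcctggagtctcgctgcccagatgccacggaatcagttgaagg
The letters are therefore all in lower case. H19 also carries the hairpin of miR-675, whose mature forms, from RefSeq and with the seed (bases 2 to 8) in capitals, are the following.
hsa-miR-675-5p: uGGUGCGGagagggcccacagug
hsa-miR-675-3p: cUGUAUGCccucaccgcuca
The microRNA has no row of its own in the count table, so its level is not analysed here.

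LUCAT1 (Entrez gene 100505994), the stress-induced RNA, had a log2-fold change between those of MALAT1 and NEAT1, and these differences were not tested. It had 834, 1238 and 908 counts under hypoxia and 365, 239 and 351 counts under normoxia. The lowest hypoxia library had 27.3 CPM and the highest normoxia library 11.9 CPM. The level was 29.5 ± 3.27 CPM under hypoxia and 10.0 ± 1.76 CPM under normoxia (SD, n = 3). The log2-fold change was 1.56 (SE 0.117, edgeR adjusted p = 1.40e-09), or 2.95-fold, and 12.4% of all genes tested had a higher one. The start of LUCAT1, chr5:91314353-91314652 on the minus strand of GRCh38.p14, is shown because LUCAT1 is known as an NRF2 target, and capitals mark the TGACNNNGC match, which reads in the opposite direction and begins 54 bases before the start site:
LUCAT1 promoter: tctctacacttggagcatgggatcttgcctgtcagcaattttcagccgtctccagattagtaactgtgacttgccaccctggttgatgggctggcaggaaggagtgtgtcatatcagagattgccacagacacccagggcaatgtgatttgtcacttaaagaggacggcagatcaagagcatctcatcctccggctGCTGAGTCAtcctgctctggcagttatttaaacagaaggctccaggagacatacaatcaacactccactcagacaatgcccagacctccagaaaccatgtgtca
None of the other 3 sets of letters was in this window. NEAT1 has no entry in the RefSeq promoter table, and the window of PVT1 is not reported here. The windows given are thus all from RNAs that rose.

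PVT1 (Entrez gene 5820), the MYC neighbour, was the exception in direction and the least changed. It had 379, 489 and 390 counts under hypoxia and 571, 456 and 407 counts under normoxia. Scaled by depth, the hypoxia libraries held 12.4, 13.1 and 12.0 CPM and the normoxia libraries 15.3, 15.9 and 13.8 CPM, so the groups were separate by a narrow gap. The log2-fold change was -0.26 (SE 0.0998, edgeR adjusted p = 0.0247), and 62.7% of all genes tested had a higher one. This call was fragile. It was lost when hypoxia replicate 1 (adjusted p = 0.0528), hypoxia replicate 3 (0.0788), normoxia replicate 1 (0.0592) or normoxia replicate 2 (0.0788) was left out, and it was also lost without TMM scaling (0.0673) and under a filter of at least 10 counts in each library (0.104). The difference kept its sign in all 12 alternatives, between -0.33 and -0.18.

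**Figure D2:**
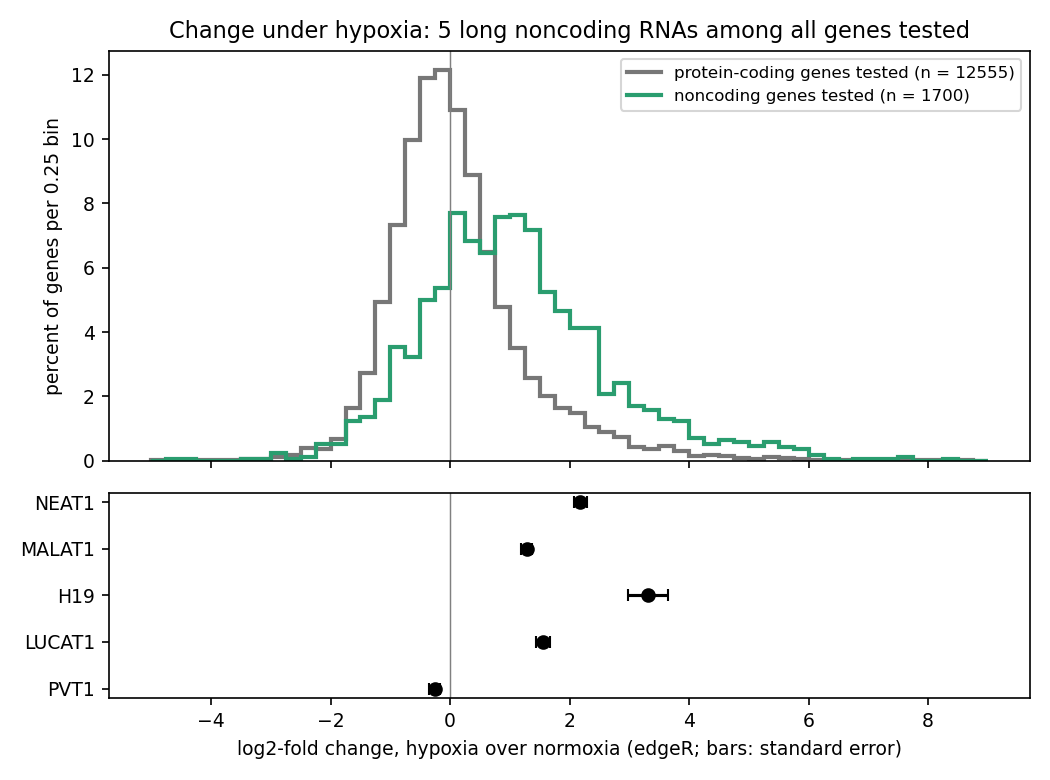
Upper panel, the percent of protein-coding genes (grey, n = 12555) and noncoding genes (green, n = 1700) in each bin of log2-fold change, with values beyond the axis placed in the end bins; lower panel, the log2-fold change of each RNA with its standard error. H19 and NEAT1 lie above both medians, with 8.53% and 20.5% of the noncoding genes higher. LUCAT1 and MALAT1 lie above the noncoding median of 0.93, with 31.7% and 39.9% higher. PVT1 lies just below 0, with 82.1% higher.

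The contrast between PVT1 and MYC was much larger than the change of PVT1 itself. MYC, the transcription factor encoded beside PVT1, had 1306, 1048 and 1091 counts under hypoxia and 9315, 7317 and 7708 counts under normoxia, and fell by 2.88 on the log2 scale (SE 0.101, edgeR adjusted p = 1.30e-13). MYC was far lower in every hypoxia library, where PVT1 was only slightly lower. The ratio of PVT1 to MYC counts was 0.290, 0.467 and 0.357 in hypoxia replicates 1 to 3, against 0.0613, 0.0623 and 0.0528 in the normoxia libraries. It was 6.21-fold higher under hypoxia, a log2 difference of 2.64, with p = 0.1 in the two-sided exact permutation test (adjusted p = 0.1 over 2 ratios), the smallest possible. A ratio of H19 to IGF2 was not formed, since IGF2 had at most 1 count in any library.

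Compared per length, the order of the 5 RNAs differed between the conditions. Under hypoxia the FPKM was 64.9 ± 8.05 for H19, 29.8 ± 3.69 for LUCAT1, 13.3 ± 1.58 for MALAT1, 9.23 ± 1.13 for NEAT1 and 6.56 ± 0.387 for PVT1 (SD, n = 3), and no neighbours in this order overlapped in their libraries. Under normoxia LUCAT1 led at 9.77 ± 1.81 FPKM, followed by PVT1 at 7.61 ± 0.529, H19 at 6.41 ± 5.85, MALAT1 at 5.27 ± 0.829 and NEAT1 at 1.97 ± 0.408. H19 could not be placed in that order, since its libraries ran from 2.78 to 13.2 FPKM, and LUCAT1 and PVT1 nearly touched, at 7.99 FPKM in the lowest LUCAT1 library and 7.93 FPKM in the highest PVT1 library. NEAT1 was lowest in every normoxia library. Its place in both orders rests on the length of its long isoform, 22743 bases. The lengths behind H19, LUCAT1 and PVT1 were 2597, 1009 and 1940 bases, shorter than their spans in RefSeq. By limma on log2(FPKM + 1), where 80.9% of 10976 genes passed, all 5 RNAs passed in the same directions as by edgeR, with differences of 1.79 for NEAT1, 3.42 for H19 and -0.19 for PVT1.

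All 5 RNAs were highest in CPM in hypoxia replicate 2 among the hypoxia libraries. NEAT1, MALAT1, H19 and LUCAT1 each ran from normoxia replicate 2 through 1 to 3 among the normoxia libraries. PVT1 had the reverse order under normoxia. Hypoxia replicate 2 was also the deepest hypoxia library, whereas the deepest normoxia library was replicate 1. Replicate numbers carry no order of their own, and the spread of NEAT1, MALAT1 and LUCAT1 within a condition, with coefficients of variation from 10.5% to 19.8%, was wider than that of the median gene.

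Genes with the most similar pattern were found by Pearson's r of log2 CPM over the 6 libraries, among 11573 other genes. These values are a description, because the points share their library and fall into the 2 conditions. IGF1R, a growth factor receptor, was closest to NEAT1 (r = 0.9999), followed by VPS13D and PLAG1. VGLL4, H6PD and SLC29A3 were closest to MALAT1, NYAP2, HDGFL2 and CLIP2 to H19, and ARSD, GCC2 and VGLL4 to LUCAT1. An r of at least 0.99 was reached by 897 genes with NEAT1 (7.75%), 431 with MALAT1 (3.72%), 649 with LUCAT1 (5.61%) and 104 with H19 (0.899%). For PVT1 only 4 genes reached it, led by VPS37A (r = 0.9945), CAMK1 and WRAP73.

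Among noncoding genes as a class, higher values under hypoxia were more frequent than lower ones. The table marks 6059 genes as noncoding, of which 1700 were tested, 948 (55.8%) rose and 176 (10.4%) fell, with a median log2-fold change of 0.93. Of 12555 protein-coding genes tested, 37.0% rose and 42.4% fell, with a median of -0.05. A noncoding gene of low level can pass the filter through its hypoxia libraries alone, so the count was repeated with at least 10 counts in every library. Then 521 of 964 noncoding genes rose (54.0%), 118 fell (12.2%) and the median was 0.61. Noncoding genes took 1.05 ± 0.0272% of all counts under hypoxia and 0.651 ± 0.0297% under normoxia (SD, n = 3).

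The 5 RNAs together took 5.11 ± 0.445% of the noncoding counts under hypoxia and 2.02 ± 0.400% under normoxia. By FPKM among the 6059 noncoding genes, H19 moved from rank 79 under normoxia to rank 11 under hypoxia, LUCAT1 from 50 to 19, MALAT1 from 97 to 47 and NEAT1 from 253 to 78. PVT1 moved the other way, from 65 to 118. The NEAT1 ranks rest on the length of its long isoform. Without normoxia replicate 3, left out here after the data were seen, the normoxia rank of H19 was 161. The most abundant noncoding RNA per length under hypoxia was UCA1 at 357 FPKM, a cancer-associated RNA, and under normoxia SNHG29, a host of small nucleolar RNAs, at 141 FPKM.

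Most transcripts of the proteins that build paraspeckles on NEAT1 fell while NEAT1 rose. Of 25 such genes tested, 20 fell, AHDC1 rose and NONO, HNRNPA1, RBM7 and ZNF24 did not pass, which is 80% lower and 4% higher beside 38.5% and 39.2% of all genes, with a median log2-fold change of -0.72 against 0.02. SFPQ, a core protein of the body, fell from 494.8 ± 22.4 to 282.1 ± 10.4 CPM, a log2-fold change of -0.81. PSPC1, its relative, fell by 1.02 on the log2 scale, and HNRNPK, which favours the long isoform, by 0.48. NONO, the partner of SFPQ, had 574.1 ± 17.8 CPM under hypoxia and 581.9 ± 28.1 CPM under normoxia and did not pass the test (log2-fold change -0.02, adjusted p = 0.743). The largest decreases were in FAM98A (-1.93) and RBM3 (-1.61), a cold-induced RNA-binding protein, and AHDC1 rose by 1.30 on the log2 scale.

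Transcripts of nuclear speckle proteins, the compartment of MALAT1, likewise fell for the most part. Of 25 tested, 18 fell, CLK1, CLK4, SRSF11 and SF3B1 rose and SRRM2, U2AF1 and DYRK1A did not pass, with a median of -0.40. The shares were 72% lower and 16% higher, beside 38.5% and 39.2% of all genes. SON, a scaffold of the speckle, fell by 0.56 on the log2 scale, whereas SRRM2, the other scaffold, had 659.7 ± 24.2 and 703.8 ± 12.4 CPM and did not pass (-0.09, adjusted p = 0.0954). Among splicing factors, SRSF1 fell by 0.70 and SRSF2 by 1.55, and the export factor ALYREF fell by 1.60. CLK1 and CLK4, kinases that phosphorylate splicing factors and release them from speckles, rose by 1.68 and 0.93.

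Most transcripts of factors that form the 3′ ends of MALAT1 and NEAT1 or degrade nuclear RNA fell as well. Of 27 tested, 23 fell, ZFC3H1 rose and METTL14, YTHDC1 and RBM7 did not pass, with a median of -0.86. Thus 85.2% were lower, beside 38.5% of all genes, and 3.70% higher, beside 39.2%. The list also held factors outside these roles, such as METTL3 and HNRNPC, which fell by 0.86 and 0.73, and METTL14 and YTHDC1. POP1 and RPP40, protein subunits of RNase P, fell by 2.19 and 2.05 on the log2 scale, and ELAC2, the RNase Z that trims the small RNA released from MALAT1, by 1.25. NUDT21 and CPSF6, which direct cleavage at the poly(A) site of the short NEAT1 isoform, fell by 0.39 and 0.88. METTL16, a protein that binds the MALAT1 triple helix, fell by 0.85. ZFC3H1, part of a complex that delivers polyadenylated nuclear RNA to the exosome, rose by 1.36.

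The NRF2 pathway, known to drive LUCAT1, mostly fell while LUCAT1 rose. Of 18 genes tested, 13 fell, HMOX1 and ABCC3 rose and ABCC2, IRF1 and RELA did not pass, with a median of -0.82. Lower calls made up 72.2% of the list and higher calls 11.1%, against 38.5% and 39.2% over all genes. NFE2L2, which encodes NRF2, fell from 95.9 ± 7.78 to 63.5 ± 1.38 CPM (log2-fold change -0.59). Its targets NQO1 and SRXN1 fell by 1.31 and 2.41 on the log2 scale, and SLC7A11, the cystine transporter, fell by 3.31. HMOX1, the haem oxygenase that NRF2 and other stress factors induce, rose by 1.74, and the transporter ABCC3 rose by 0.52.

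Genes of the MYC network moved both ways. Of 15 tested, 7 rose, 7 fell and HUWE1 did not pass, with a median of -0.05, so that each direction held 46.7% of them beside 39.2% higher and 38.5% lower among all genes. MAX, the partner of MYC, fell by 0.56 on the log2 scale. MXI1, an antagonist of MYC and a known hypoxia target, rose by 3.96, from 8.19 ± 1.40 to 126.9 ± 10.1 CPM, and MLXIPL, a glucose-responsive factor, by 3.48. At the locus, 8 of 15 listed genes in the table were tested, of which 5 fell, PVT1 among them, POU5F1B rose and GSDMC and ASAP1 did not pass, which is 62.5% lower and 12.5% higher, with a median of -0.68. The count that fell was 4 wherever PVT1 lost its call, as without TMM or without hypoxia replicate 1 or 3 or normoxia replicate 1 or 2. POU5F1B had 9, 2 and 12 counts in normoxia replicates 1 to 3, and the filter of at least 10 counts in each library left it out. Under that filter 7 locus genes were tested, of which 4 fell and 0 rose. LRATD2, TRIB1 and CASC8 fell by 0.95, 1.05 and 0.70. CASC11 and PCAT1 were at or below 2 counts in every library. CCAT1 was not tested and had 1, 2 and 0 counts under hypoxia and 11, 11 and 9 counts under normoxia.

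The list of H19 partners and imprinted genes also held proteins that are not imprinted, such as CTCF, EZH2 and the IGF2BP family of RNA-binding proteins. Of 16 tested, 8 rose and 8 fell, 50% each beside 39.2% and 38.5% of all genes, with a median of 0.14. CDKN1C and KCNQ1OT1, an inhibitor of the cell cycle and the noncoding RNA that silences it in cis, rose by 3.58 and 1.37 on the log2 scale, SLC22A18 rose by 1.73 and PHLDA2 fell by 1.01, all in the imprinted domain next to that of H19. CDKN1C had 9, 7 and 12 counts in normoxia replicates 1 to 3, and the filter of at least 10 counts in each library left it out. Under that filter 14 genes of this list were tested, of which 6 rose and 7 fell. CTCF, the insulator protein that binds between H19 and IGF2, fell by 0.96.

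Other known long noncoding RNAs moved in both directions. Of 41 tested, 21 rose, 11 fell and 9 did not pass, with a median of 0.28 beside 0.93 for the 1700 noncoding genes tested. That is 51.2% higher and 26.8% lower, where 55.8% and 10.4% of those noncoding genes were higher and lower, and 39.2% and 38.5% of all genes. HIF1A-AS3 and MIR210HG, the host of a hypoxia-induced microRNA, rose by 4.77 and 3.72 on the log2 scale, and UCA1 rose by 1.67. SNHG15 and DLEU2 fell by 2.86 and 1.48. NORAD, GAS5 and MIR31HG changed little, rising by 0.26, 0.34 and 0.28, and MIR31HG lost its call without hypoxia replicate 2 (adjusted p = 0.0737) or normoxia replicate 2 (0.151). TUG1 is not analysed here.

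Between NEAT1 and MALAT1, next to each other in the genome, lay LINC02736 with at most 2 counts in any library. Before NEAT1, FRMD8 had 25.8 ± 2.48 and 24.8 ± 0.204 CPM and SLC25A45 had 1.81 ± 0.186 and 1.24 ± 0.256 CPM, and neither passed the test. After MALAT1, LTBP3, a binding protein of latent TGF-beta, rose by 1.85 and ZNRD2-DT, a divergent transcript of low level, by 2.26.

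Beside H19, MRPL23, a mitochondrial ribosomal protein gene, fell slightly (-0.19, lost at -0.12 under the filter of 10 counts). MRPL23-AS1 had 32, 28 and 15 counts under hypoxia and 1, 0 and 1 under normoxia, and TH, tyrosine hydroxylase, had 25, 45 and 52 counts against 0, 1 and 1. Set against a floor of 3 counts per library, these were at least 7.89-fold and at least 12.7-fold higher under hypoxia. LINC01219 had 3, 10 and 11 counts under hypoxia and none under normoxia, too few to pass the filter, and IGF2 and ASCL2 were at or below 1 count.

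LUCAT1 lay between the receptor gene ADGRV1, which rose by 2.29 on the log2 scale, and ARRDC3, an arrestin family gene, which rose by 2.86 from 33.2 ± 2.17 to 241 ± 25.7 CPM. Both values exceed that of LUCAT1, a difference that was not tested. ARRDC3-AS1 had 0.975 ± 0.474 CPM under hypoxia and 0.922 ± 0.268 CPM under normoxia and did not pass the test (adjusted p = 0.909). Between ADGRV1 and LUCAT1, the noncoding LOC107986432 had 13, 16 and 9 counts under hypoxia against 0, 0 and 1, and LOC107986433 had 0, 8 and 4 counts against none, both too few to be tested. On the far side of PVT1, GSDMC did not pass the test, at 0.469 ± 0.154 and 0.754 ± 0.137 CPM, and CYRIB fell by 0.81.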

How the data were processed

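RNA sequencing was compared between 3 hypoxia and 3 normoxia libraries grouped by the sample labels. The authors deposited whole-number counts per gene, unnormalized, and FPKM of the same genes, scaled by gene length and library total. The aligner and counting tool are not given in the sources used here, nor is the use of strand, and the submitters' processing notes name the mouse builds GRCm38 and mm10. GENCODE v29 lists genes on the opposite strand that share exon bases with MALAT1, H19 and PVT1, and none of them has a row in the table.

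Counts were tested with edgeR 4.0.16 (R 4.3.3; glmQLFit, glmQLFTest, TMM, filterByExpr, condition as the only term), with Benjamini-Hochberg adjustment over 14255 genes at 0.05. Log2 CPM used a prior count of 2. Log2(FPKM + 1) was tested with limma 3.58.1 for genes with a mean FPKM of at least 1. Ratios used 0.5 added to each count for the test. The tests were checked first on simulated counts in which a small share of genes changed, equally up and down. In these data 77.8% of genes were called, a setting that the simulation did not cover. A gene with 3 or fewer counts in each library of a condition was taken as at the floor, which covers counting error only. No pair of replicates agreed within sampling noise (chi-square per gene 5.11 to 11.5), and all 6 libraries were kept.

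Named genes were the 5 RNAs, set partners, the 2 largest increases and decreases of each list (mean log2 CPM of at least 1, no overlap), the 3 nearest genes on each side in RefSeq order and the 3 most similar patterns. For 21075 genes of the table, an entry in RefSeq was found. Other genes named, such as NDRG1, TP63, CD68, CDH5, POU5F1B and list members that did not pass, were picked with their values in view. Some named genes are not reported here. The members and lists were chosen with earlier results of these data known. Alternatives were DESeq2 (1.42.0) size factors and Wald test, no TMM, other filters, a replicate block, a pseudocount of 0.1, 5 added counts in the ratios and each library left out in turn.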

Additional observations from a re-analysis of the deposited data

How the results depend on the processing

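NEAT1, MALAT1, H19 and LUCAT1 kept their direction and call in all 12 alternatives of the count test, with log2-fold changes of 2.04 to 2.32, 1.18 to 1.37, 2.96 to 4.35 and 1.45 to 1.68. The highest H19 value came from leaving out normoxia replicate 3. PVT1 lost its call without TMM (-0.21) and under the filter of 10 counts (-0.18), and in 4 of the 6 fits that each left out 1 library, which ranged from -0.33 to -0.23. On the FPKM scale PVT1 lost it without a filter (-0.19, adjusted p = 0.0528) and in 4 of the 6 fits with 1 library left out (adjusted p of 0.0631 to 0.0932), which ranged from -0.24 to -0.15. The cause was not tested. Between 9967 and 11920 genes were called. NONO, FRMD8 and ARRDC3-AS1, which passed the test in no fit, turned sign in some. NONO had 0.028 without TMM and 0.058 under the filter of 10 counts, and ranged from -0.063 to 0.011 with 1 library left out. FRMD8 ranged from -0.023 to 0.12 and ARRDC3-AS1 from -0.30 to 0.40 in those fits. KRT5 lost its call without hypoxia replicate 2 (adjusted p = 0.0624), without TMM (0.0505) and under the filter of 10 counts (0.127). SRRM2 gained one without hypoxia replicate 2 (0.0371), without normoxia replicate 3 (0.0355) and without a filter (0.0223), and HNRNPA1 gained one without normoxia replicate 1 (0.0477), without a filter (0.00962) and by DESeq2's Wald test (0.0368). SF3B1 lost its call without normoxia replicate 1 (0.111) and without a filter (0.101). SLC25A45 gained one under the filter of 10 counts (0.0335). The log2 ratios ranged from 0.87 to 0.95 for NEAT1 to MALAT1 and from 2.46 to 2.80 for PVT1 to MYC. PVT1, with 379 to 571 counts a library, was the shallowest of the 5 under hypoxia.

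With the replicate number as a block, 10875 genes were called, H19 changed by 3.54 and PVT1 by -0.26 (edgeR adjusted p = 0.0332), and no call of the 5 RNAs changed. Same-numbered libraries did not deviate together (correlations of 0.0175, -0.0690 and 0.0012). This describes shared deviation only and cannot show whether the libraries were paired by design.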
